A study of Mus musculus with 16 samples.

Results

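The genes described here are 4 of the tripartite motif (TRIM) family, Trim14, Trim21, Trim25 and Trim26, and 2 that encode proteins of PML nuclear bodies, Pml and Sp100. They were chosen by name, with earlier results of these data known, as the probe sets that carry only their symbol. They make up 6 of 19752 genes on the array, and their counts beside all genes are no test of the group. Each had 1 such probe set, and all 6 passed the filter on low values, set at the array median, in every fit that used it. RNA of sorted cells from male mice was hybridised to 16 arrays (Affymetrix Mouse Gene 1.0 ST), which form 8 groups with 2 arrays in each. Values are log2 intensities of the deposited linear signal, so differences are log2 fold changes.

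The series asks how far interferon-stimulated genes depend on IFNAR1, without which the receptor for type I interferons does not signal, and on the receptor's kinase Tyk2. Macrophages of the peritoneal cavity, sorted as positive for ICAM2 and for the macrophage antigen that Adgre1 encodes, came from 6-week-old C57BL/6 mice of the line B6.129S2-Ifnar1tm1Agt/Mmjax, which lack Ifnar1 (KO). They were taken 2 h after 10000 units of interferon alpha (IFNα) given under the skin, or carried a title that names no IFNα. Macrophages of the same gate and splenic CD4+ T cells (TCRB+ CD4+ CD8-) were sorted from B10.Q/J mice aged 7 weeks, which carry a natural Tyk2 mutation. The B10.Q/J mice were given the same 10000 units and taken at 2 h or at 5 h, or were given vehicle, with 1 vehicle array from each time. No group here had both Ifnar1 and Tyk2 intact. KO and B10.Q/J macrophages differ in strain, age and control as well as in the receptor pathway, and these cannot be told apart. For the KO pair without IFNα, the text on preparation still describes the 2 h injection, and the title was followed. The arrays of each B10.Q vehicle pair come from different times, so their gap includes any effect of time and is not only technical. For the other groups the labels do not tell whether both arrays are from different mice. The p-values measure only the spread between arrays within groups, which may be technical in those other groups.

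TRIM proteins are mostly ubiquitin ligases, built of a RING domain, B-boxes and a coiled coil, and many are induced by interferon and act in antiviral defence. TRIM25 ubiquitinates the RNA sensor RIG-I and so helps it to signal, TRIM21 is a receptor inside the cell for antibody on incoming virus, TRIM14 is an adaptor of the mitochondrial antiviral protein MAVS and lacks the RING, and TRIM26 is a RING ligase reported to act on IRF3. PML is itself a TRIM protein, also named TRIM19, and builds the nuclear bodies that bear its name. SP100 is a resident of these bodies that represses the genomes of DNA viruses.

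In the RefSeq annotation of GRCm38.p6, Trim25 spans 11:88999403-89020294, Trim21 7:102557920-102565482, Trim14 4:46505072-46536150, Trim26 17:36837123-36859398, Pml 9:58217179-58249796 and Sp100 1:85649948-85709998. A probe set named for Sp100 and 4 further symbols was kept out of the group, and whether the probes used for Sp100 also read related genes was not tested.

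The stretches below show where the promoters of these genes differ in repeats of GAAA. Interferon-activated transcription factors bind the form with 2 bases between. RefSeq windows of GRCm38.p6, from 250 bases before to 50 bases after the annotated start, were at hand for 5 of the 6 genes, all but Trim14. Letters are searched on both strands, overlapping matches are counted separately, and capitals mark the matches. The repeat with 3 bases between is a different form and was chosen after the sequences were seen. The repeat GAAANNGAAA stood in 3.44% of all 32851 windows, and there were 2 overlapping matches each for Trim21 (bases 14 to 29 after the start, inside the transcribed part) and Trim26 (bases -160 to -145).
Trim21, chr7:102565447-102565476, minus strand: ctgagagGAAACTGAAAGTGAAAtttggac
Trim26, chr17:36836946-36837045, plus strand: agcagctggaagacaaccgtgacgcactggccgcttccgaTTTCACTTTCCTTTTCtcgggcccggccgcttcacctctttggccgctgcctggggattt
The longer repeat GAAANNNGAAA, found in 2.75% of windows, had 1 match for Sp100, at bases -47 to -37 of the first of its 2 overlapping windows. That window counts from a start inside the gene span given above, and the match covers the first base of that span. The windows of Trim26 and Pml also count from a start inside their span.
Sp100, chr1:85649934-85649963, plus strand: gaattacTTTCGTTTTTCttttccccatca
The windows of Pml and Trim25 held neither repeat, and a stretch before each start is shown without capitals (bases -110 to -11 for Pml and -100 to -1 for Trim25).
Pml, chr9:58249797-58249896, minus strand: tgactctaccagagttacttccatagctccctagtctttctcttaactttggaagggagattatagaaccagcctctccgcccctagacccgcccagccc
Trim25, chr11:88999303-88999402, plus strand: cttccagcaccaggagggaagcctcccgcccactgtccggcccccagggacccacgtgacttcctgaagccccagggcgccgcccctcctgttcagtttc
The palindrome TTCNNNGAA, in 8.3% of windows, matched none of the 5 genes. These are matches of letters within 300 bases and say nothing of binding.

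**Figure D1:**
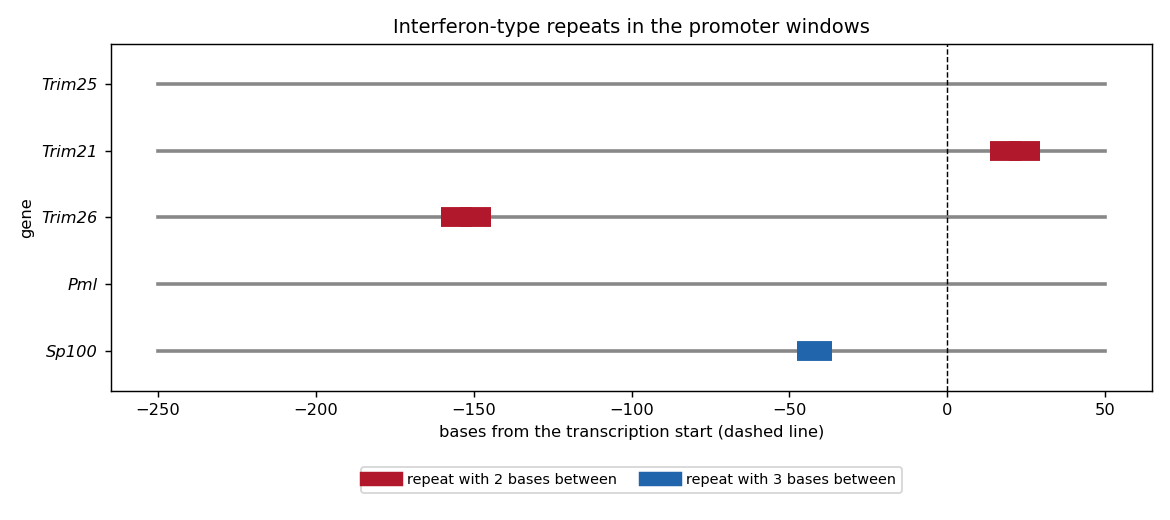
Position of the repeats GAAANNGAAA (2 bases between) and GAAANNNGAAA (3 bases between) in the promoter windows of 5 genes, on the axis of bases from the annotated start, for the first window of Sp100. The matches of Trim21 lie after the start, at 14 to 29, those of Trim26 at -160 to -145 and that of Sp100 at -47 to -37, and Trim25 and Pml have none.

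Array medians lay between 173.57 and 193.70 on the linear scale, and each array correlated with its partner at 0.984 to 0.997. The 14 macrophage markers on the array averaged 11.78 to 12.35 in the 10 macrophage arrays and 7.21 to 8.64 in the 6 T-cell arrays, and 10 T-cell markers averaged 6.48 to 6.80 in macrophage arrays and 11.80 to 12.01 in T-cell arrays. Adgre1 ran from 12.73 to 13.20 in macrophages and from 5.88 to 8.63 in T cells, and Cd4 from 6.47 to 6.69 and from 12.02 to 12.31, so each array showed the cell type of its label, including a T-cell vehicle array whose title starts with a B-cell code and 5 of 6 B10.Q macrophage arrays whose titles carry the code for spleen. The 9 B-cell markers averaged 6.70 to 6.77 in B10.Q macrophages, against 6.78 to 7.54 in KO macrophages, and 10 neutrophil markers averaged 6.16 to 6.36, against 6.42 to 7.08, with the highest value on KO array 1 without IFNα. Their part in the comparisons between the lines was not tested. The KO array 1 with IFNα stood apart, with the lowest macrophage markers (11.78) and the narrowest spread of all values (interquartile range 2.46). It also had the highest B-cell markers of all arrays, 7.54 against 6.78 on its partner, with 5 and 2 of the 9 above the array median. Ifnar1 itself read 9.93 and 10.31 in KO macrophages with IFNα and 10.26 and 10.09 in those without, against 10.26 and 10.46 in B10.Q vehicle macrophages. Whether its probes lie in the deleted part is not given in the sources used here, so this level does not check the label.

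Trim25, Pml and Sp100 rose in B10.Q macrophages within 2 h of IFNα, by 2.161-, 1.936- and 2.505-fold, and Trim26 differed by 0.13 ± 0.13 on the log2 scale. These were 3 of the 6 genes, where 0.798% of all genes tested were called higher (limma, Benjamini-Hochberg adjusted p under 0.05, 84 of 10531). None of the 6 fell, and 0 of the 10531 genes tested were called lower.

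Trim25 read 11.38 and 11.06 in macrophages at 2 h and 10.80 and 10.85 at 5 h, against 10.23 and 9.99 with vehicle. These vehicle arrays were taken at 2 h and 5 h, in that order. All 4 treated arrays lay above both vehicle arrays, and the 2 h pair above the 5 h pair. The difference from vehicle was 1.11 ± 0.15 at 2 h (SE, n = 2 arrays per group here and throughout, adjusted p from limma 0.00797). At 5 h it was 0.72 ± 0.15 and was not called (limma adjusted p 0.0958). The later time stood below the earlier by -0.40 ± 0.15, which did not pass either (limma adjusted p 0.904). Against the 1 vehicle array of its own time, Trim25 differed by a mean of 0.99 at 2 h and 0.84 at 5 h. Between the times 0 of the 6 genes were called, where 0.0095% of all genes were called higher at 5 h and 0% lower.

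Pml read 11.02 and 10.65 at 2 h and 10.79 and 10.73 at 5 h, against 9.93 and 9.84 with vehicle. The treated times overlapped each other and were both clear of vehicle. The difference was 0.95 ± 0.15 at 2 h (limma adjusted p 0.0162) and 0.88 ± 0.15 at 5 h (limma adjusted p 0.0256), and the later minus the earlier time was -0.08 ± 0.15.

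Sp100 read 11.52 and 11 at 2 h and 11.70 and 11.70 at 5 h, against 9.90 and 9.97 with vehicle. Its 5 h arrays were higher than its 2 h arrays, the only 1 of the 6 genes for which this held. The difference from vehicle was 1.32 ± 0.23 at 2 h (limma adjusted p 0.0237) and 1.77 ± 0.23 at 5 h (3.404-fold, limma adjusted p 0.00449). The gap between the times, 0.44 ± 0.23, was not called (limma adjusted p 0.904).

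Trim21 read 9.38 and 8.95 at 2 h and 9.03 and 9.19 at 5 h, against 8.43 and 8.37 with vehicle. The treated arrays were all higher, with differences of 0.77 ± 0.18 and 0.71 ± 0.18 that did not pass over all genes (limma adjusted p 0.141 and 0.194). Trim14 read 10.98 and 10.45 at 2 h and 10.51 and 10.60 at 5 h, against 10.02 and 9.90 with vehicle. It too was higher on every treated array, by 0.75 ± 0.22 and 0.60 ± 0.22 (limma adjusted p 0.373 and 0.821). Trim26 read 8.31 and 8.49 at 2 h and 8.45 and 8.51 at 5 h, against 8.28 and 8.26 with vehicle. Its differences, 0.13 ± 0.13 and 0.20 ± 0.13, were near their error, with 95% intervals of -0.16 to 0.41 and -0.08 to 0.49.

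At 5 h, 2 of the 6 genes were called (Sp100 and Pml), where 0.836% of all genes were called higher. All 6 had both treated arrays above both vehicle arrays at each time, as did 11.3% of all genes tested at 2 h and 19.1% at 5 h. The median difference of the 6 was 0.86 at 2 h and 0.71 at 5 h, against -0.06 and -0.01 over all genes tested. At an unadjusted p under 0.05, 5 of the 6 were higher at 2 h and 5 at 5 h, all but Trim26, where 2.54% and 3.11% of all genes were.

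The calls rested on few arrays. At 2 h, without array 1 of the treated pair the differences were 0.95 for Trim25, 0.77 for Pml and 1.06 for Sp100, and none was called (limma adjusted p 0.111, 0.205 and 0.376). Without vehicle array 2 they were 0.99, 0.91 and 1.36, again with none called (0.119, 0.205 and 0.174). Without vehicle array 1 Pml (0.99, adjusted p 0.124) and Sp100 (1.29, 0.211) lost the call and Trim25 kept it (1.23, 0.0434). At 5 h Pml lost it without any of the 4 arrays, at 0.83 to 0.92, and Sp100 without vehicle array 1 (1.73, limma adjusted p 0.0589) or either treated array (1.77 each, 0.051 and 0.0552). Quantile normalization ended the call of Sp100 at 2 h (1.32, limma adjusted p 0.059). None of these settings turned a direction. Array 1 of the 2 h pair was higher than array 2 for 5 of the 6 genes, by a median of 0.40, while over all genes its median was 0.08 lower and 33% of genes were higher on it.

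**Figure D2:**
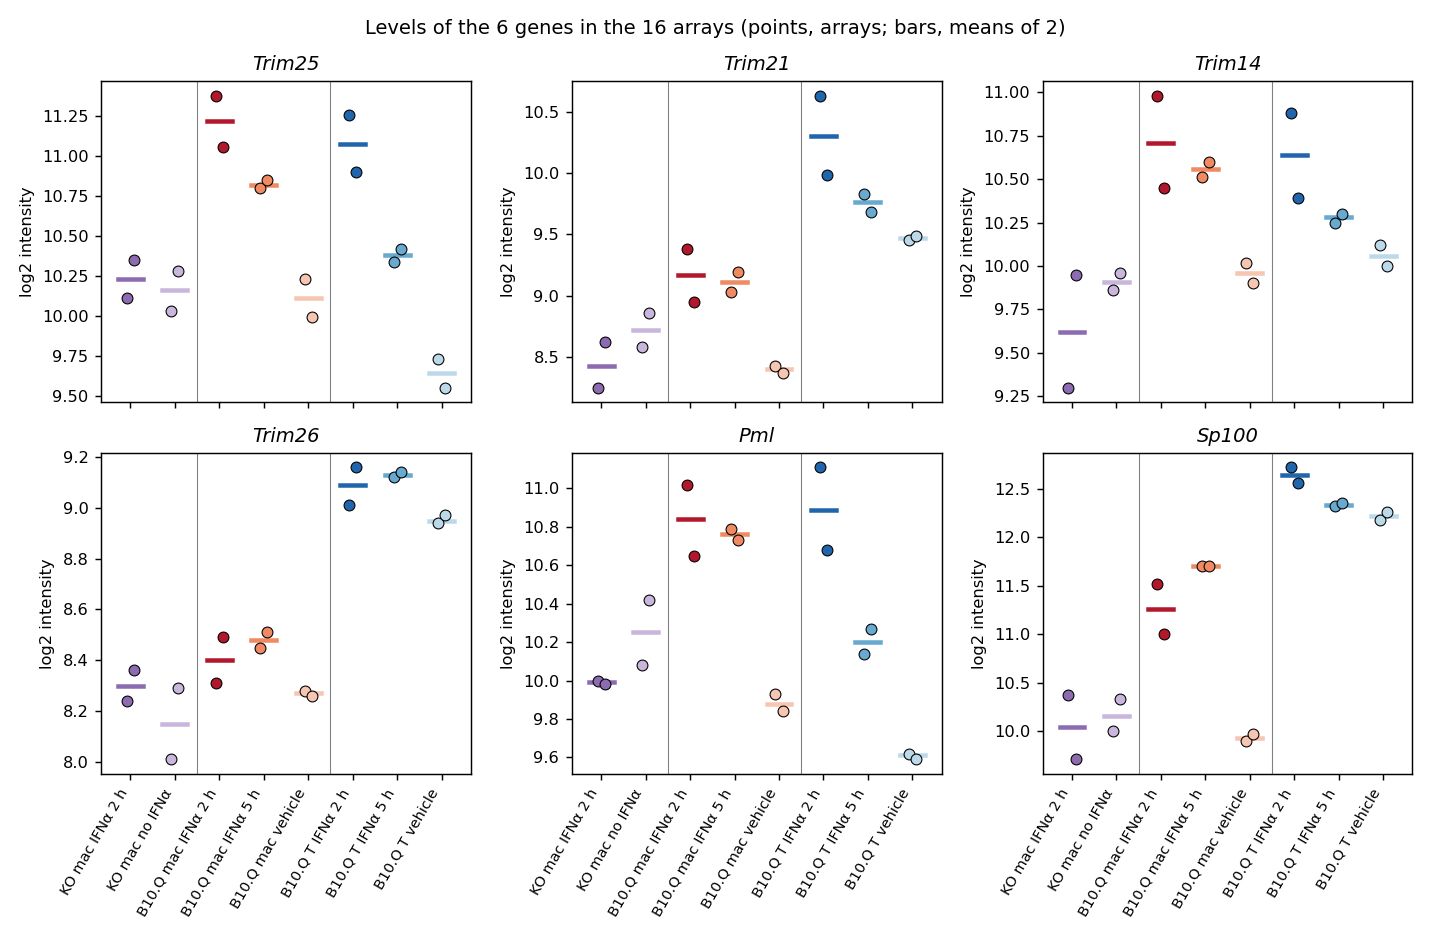
Log2 intensity (vertical axes) of the 6 genes in the 8 groups, with each array as a point and the mean of 2 as a bar; the axes do not start at 0 and differ between panels. The treated B10.Q arrays stand above their vehicle for all 6 genes, Sp100, Trim21 and Trim26 are higher in T cells than in macrophages, and in KO macrophages no gene stands higher with IFNα on both arrays.

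In KO macrophages none of the 6 genes was called with IFNα, and neither was any other gene tested (limma, 0% of 10531 genes higher and 0% lower, with 460 genes at an unadjusted p under 0.05, none of them among the 6). Trim25 read 10.11 and 10.35 with IFNα, against 10.03 and 10.28 without. Pml read 10 and 9.98 with IFNα, against 10.08 and 10.42 without, so both treated arrays were lower, as they were for 10.3% of all genes. Sp100 read 10.37 and 9.71 with IFNα, against 10 and 10.33 without, and the 10.37 belongs to the array that stood apart. The pairs of all genes but Pml overlapped.

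Trim21 read 8.25 and 8.62 with IFNα in KO macrophages, against 8.58 and 8.86 without. Trim14 read 9.30 and 9.95, against 9.86 and 9.96, and the low value belongs to the array that stood apart. Trim26 read 8.24 and 8.36, against 8.01 and 8.29. The differences of the 6 genes ran from -0.29 to 0.15. Their 95% intervals reached at most 0.42 for Trim25, 0.08 for Pml and 0.38 for Sp100, below the differences of 1.11, 0.95 and 1.32 at the same time in B10.Q macrophages. For Trim21 and Trim14 they reached 0.11 and 0.20, below 0.77 and 0.75, but for Trim26 0.44, above 0.13. This comparison leaves out the error of the B10.Q differences, which the interaction below takes in. Without KO array 1 with IFNα, Sp100 stood at -0.45 and Trim14 at 0.04, and without array 2 they stood at 0.20 and -0.61. None was called in any of these fits, though the count over all genes was 37 without array 1 and 1191 without array 2.

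The difference of the responses was tested as an interaction, B10.Q minus KO at 2 h. None of the 6 genes passed, where 0.408% of all genes were called higher (43 of 10531) and 0% lower. Pml was nearest, at 1.21 ± 0.21 (limma adjusted p 0.0532), and it was called in 6 of 17 alternatives. Sp100 stood at 1.45 ± 0.32, Trim21 at 1.06 ± 0.25, Trim25 at 1.04 ± 0.22 and Trim14 at 1.04 ± 0.31 (limma adjusted p 0.129, 0.191, 0.108 and 0.432). Trim26 stood at -0.02 ± 0.18. At an unadjusted p under 0.05, 5 of the 6 were higher, where 3.03% of all genes were. Without KO array 1 with IFNα, Sp100 stood at 1.78 and Pml at 1.22. Over the 17 alternatives Sp100 ran from 1.12 to 1.78 and Pml from 1.02 to 1.39.

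Without IFNα the 6 genes were not called different between the lines, where 0.275% of all genes were called higher in B10.Q and 0.266% lower. Pml, Trim21 and Sp100 read lower on both B10.Q vehicle arrays than on both KO arrays, as did 24.4% of all genes. Their differences were -0.36 ± 0.15, -0.32 ± 0.18 and -0.23 ± 0.23 (limma adjusted p 0.401, 0.5 and 0.69). The other 3 ran from -0.05 to 0.13.

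In T cells of B10.Q mice Trim25 and Pml rose at 2 h, by 2.714- and 2.438-fold, and no gene of the 6 was called at 5 h. The calls at 2 h were 2 of the 6, where 0.277% of all genes were called higher (28 of 10112), and at 5 h 0.0198% were (2 genes). Trim25 read 11.26 and 10.90 at 2 h and 10.34 and 10.42 at 5 h, against 9.73 and 9.55 with vehicle. The 3 pairs did not overlap, with 5 h between. The difference was 1.44 ± 0.13 at 2 h (limma adjusted p 0.00853) and 0.74 ± 0.13 at 5 h (0.402). Against the vehicle array of its own time, Trim25 differed by a mean of 1.35 at 2 h and 0.83 at 5 h.

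Pml read 11.11 and 10.68 at 2 h and 10.14 and 10.27 at 5 h, against 9.62 and 9.59 with vehicle. Its pairs were in the same order and also apart, with differences of 1.29 ± 0.14 (limma adjusted p 0.021) and 0.60 ± 0.14 (0.856). Between the times both genes were lower at 5 h, Trim25 by -0.70 ± 0.13 and Pml by -0.69 ± 0.14, which did not pass (limma adjusted p 0.355 each). Between the times 0 of the 6 were called, where 0.00989% of all genes were called higher at 5 h and 0% lower. Of the 6 genes 5, all but Trim26, had both 5 h arrays below both 2 h arrays, as did 15.6% of all genes tested.

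Sp100 read 12.72 and 12.56 at 2 h and 12.32 and 12.35 at 5 h, against 12.18 and 12.26 with vehicle. The differences were 0.42 ± 0.09 at 2 h and 0.12 ± 0.09 at 5 h and were not called (limma adjusted p 0.296 at 2 h). Trim21 read 10.63 and 9.98 at 2 h and 9.83 and 9.68 at 5 h, against 9.45 and 9.49 with vehicle, a difference of 0.84 ± 0.19 at 2 h (0.31) and of 0.29 ± 0.19 at 5 h. Trim14 read 10.88 and 10.39 at 2 h and 10.25 and 10.30 at 5 h, against 10.12 and 10 with vehicle, a difference of 0.57 ± 0.16 at 2 h (0.546) and of 0.22 ± 0.16 at 5 h. Trim26 read 9.01 and 9.16 at 2 h and 9.12 and 9.14 at 5 h, against 8.94 and 8.97 with vehicle, and its differences were 0.13 ± 0.09 and 0.18 ± 0.09.

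All 6 genes had both treated T-cell arrays above both vehicle arrays at 2 h and at 5 h, as did 14.5% and 21.7% of all genes tested. Their median difference was 0.70 at 2 h and 0.25 at 5 h, against -0.03 and 0.00 over all genes. At an unadjusted p under 0.05, 5 of the 6 were higher at 2 h and 2 at 5 h, where 3.35% and 2.32% of all genes were.

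Macrophage markers moved with the 2 h T-cell pair. The 14 markers averaged 8.64 on array 1 and 7.66 on array 2 at 2 h, and 7.26 and 7.25 at 5 h, against 7.31 and 7.21 with vehicle. Above the median of the array lay 10 and 5 of the 14 at 2 h and 4 on each at 5 h, against 4 and 5 with vehicle. Array 1 was also higher than array 2 for 5 of the 6 genes, by a median of 0.40, while over all genes the median was 0.02 lower. Without array 1 Trim25 stood at 1.26 and Pml at 1.07, both called (limma adjusted p 0.000402 and 0.000686), and without array 2 at 1.62 and 1.5, with 5 of the 6 genes called and 1817 genes in all. Without vehicle array 1 (1.53 and 1.30) or vehicle array 2 (1.35 and 1.27) neither was called, nor in a fit of only the 2 h and vehicle arrays (limma adjusted p 0.0702 and 0.113). The same kind of fit called both at 5 h (0.00454 and 0.00901). The part of macrophage RNA in the T-cell differences was not tested.

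**Figure D3:**
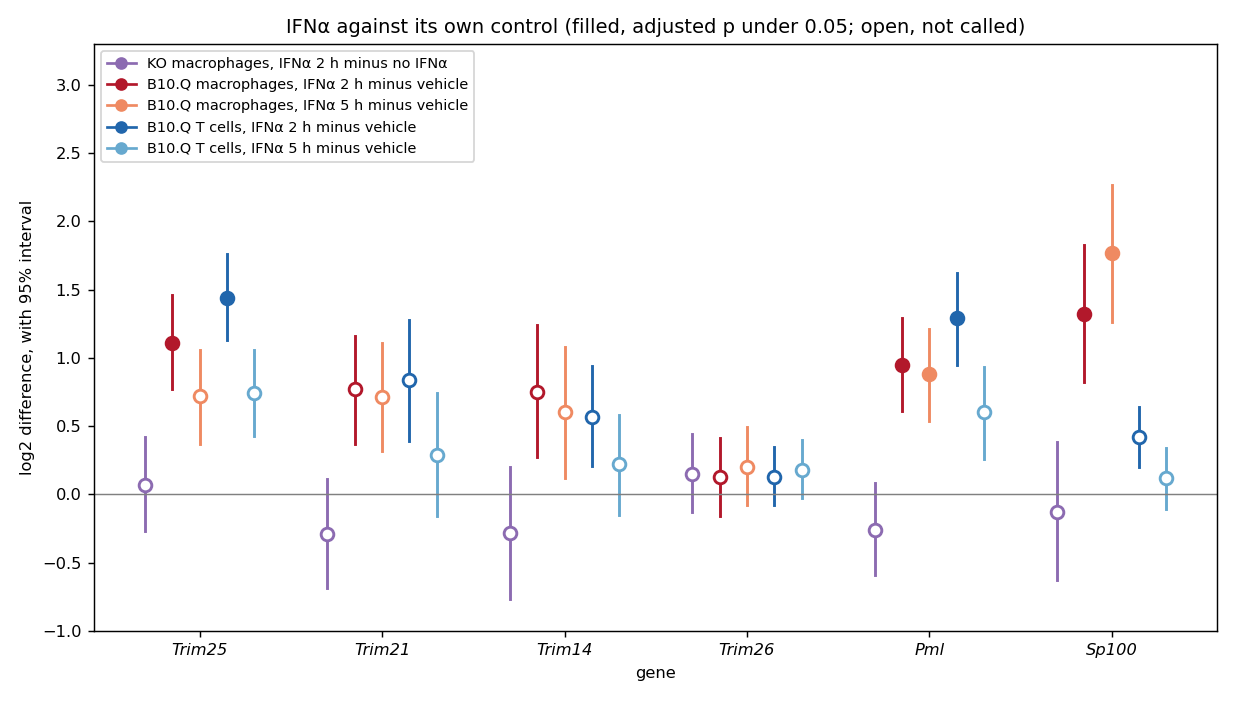
Log2 difference of IFNα from its own control (vertical axis) for the 6 genes in 5 comparisons, with 95% intervals from the fit; filled points passed at an adjusted p under 0.05. Trim25, Pml and Sp100 are filled in B10.Q macrophages at 2 h, Sp100 and Pml at 5 h, and Trim25 and Pml in T cells at 2 h, while KO macrophages lie around 0.

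Under vehicle, macrophages and T cells of B10.Q mice differed in 4 of the 6 genes, where 28.1% of all genes were higher in macrophages and 34.1% lower, so this share is near that of the whole array. Sp100 was lower in macrophages by -2.28 ± 0.14 (limma adjusted p 1.84e-08), Trim21 by -1.07 ± 0.18 (0.000268) and Trim26 by -0.68 ± 0.09 (4.57e-05). Trim25 was higher in macrophages by 0.47 ± 0.14 (0.0125), a call lost without macrophage vehicle array 1 (0.35, 0.114) or T-cell vehicle array 2 (0.38, 0.0968). Pml stood at 0.28 ± 0.15 (0.12) and Trim14 at -0.10 ± 0.17. In bulk samples fewer cells of a type and less RNA per cell cannot be told apart.

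Sp100 responded more in macrophages than in T cells at 5 h. The macrophage response minus the T-cell response was 1.65 ± 0.20 (3.141-fold, limma adjusted p 0.00483), the only call among the 6, where 0.242% of all genes were called higher (27 of 11161) and 0.00896% lower. It was called in 17 of 17 alternatives, at 1.61 to 1.69 and an adjusted p of 1.22e-05 to 0.0499. At 2 h it stood at 0.90 ± 0.20 and was not called (0.3), nor were the other 5, where 0.0269% of genes were. The level of Sp100 in macrophages minus that in T cells was -2.28 with vehicle, -1.38 at 2 h and -0.63 at 5 h, so macrophages stayed below T cells throughout. T-cell markers in these macrophage arrays averaged 6.61 to 6.70 at 2 h and 6.48 to 6.51 at 5 h, against 6.54 to 6.57 with vehicle, and 9 of 10 lay below the median of every macrophage array.

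The other 5 genes did not differ in response at 5 h beyond the test. Trim21 stood at 0.43 ± 0.26, Trim14 at 0.38 ± 0.24, Pml at 0.28 ± 0.21, Trim26 at 0.02 ± 0.13 and Trim25 at -0.02 ± 0.20, with a 95% interval of -0.47 to 0.42 for Trim25 and of -0.17 to 0.73 for Pml. At 2 h Trim25 and Pml each stood at -0.33, with intervals of -0.77 to 0.11 and -0.78 to 0.12. The 5 h interval of Trim25 allows moderate differences in either direction. That of Pml at 5 h reaches mainly toward a larger macrophage response, and both 2 h intervals reach mainly toward a larger T-cell response.

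The order of the 8 groups by mean level differed between the genes. Trim25 and Pml had the same 3 treated B10.Q groups on top, from both cell types, with means of 11.22 (macrophages, 2 h), 11.08 (T cells, 2 h) and 10.82 (macrophages, 5 h) for Trim25, and of 10.84, 10.89 and 10.76 for Pml. The 2 h groups overlapped each other in both genes, and the T-cell vehicle group was lowest, at 9.64 and 9.61. Treated T cells at 5 h came next for Trim25, at 10.38, while for Pml they stood at 10.20, below KO macrophages without IFNα (10.25), whose arrays they overlapped. Trim14 was alike, with 10.71, 10.64 and 10.56, but KO macrophages with IFNα were lowest, at 9.62.

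Sp100, Trim21 and Trim26 had all 3 T-cell groups above all macrophage groups. The T-cell means were 12.22 to 12.64 for Sp100, 9.47 to 10.30 for Trim21 and 8.95 to 9.13 for Trim26. Within macrophages, Sp100 in the treated B10.Q groups (11.70 and 11.26) was apart from the KO and vehicle groups (9.93 to 10.16). KO macrophages with IFNα overlapped both other groups, and the B10.Q vehicle arrays lay below the KO arrays without IFNα. Trim26 spanned only 8.01 to 8.51 over all 10 macrophage arrays.

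Across the 16 arrays Trim25 and Pml were each other's nearest gene of the 10530 others searched (Pearson r 0.958), a description over arrays that share their treatment and cell type. Cmpk2 (0.915 and 0.928) and Isg20 (0.913 and 0.910) came next for both. The genes most like Sp100 were Ms4a4c (0.968), Ifi208 (0.967) and Slfn1 (0.965), and those most like Trim21 were 9330175E14Rik (0.983), Ascc3 (0.963) and Ifi213 (0.959). Trim14 was nearest to Tent4a (0.940), Parp14 (0.939) and Zup1 (0.935), and Trim26 to Zhx2 (0.973), Gpr146 (0.972) and Tinf2 (0.972). Among the 6 genes Sp100 correlated with Trim21 at 0.913 and with Trim26 at 0.882, and Trim25 with Trim26 at 0.059.

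**Figure D4:**
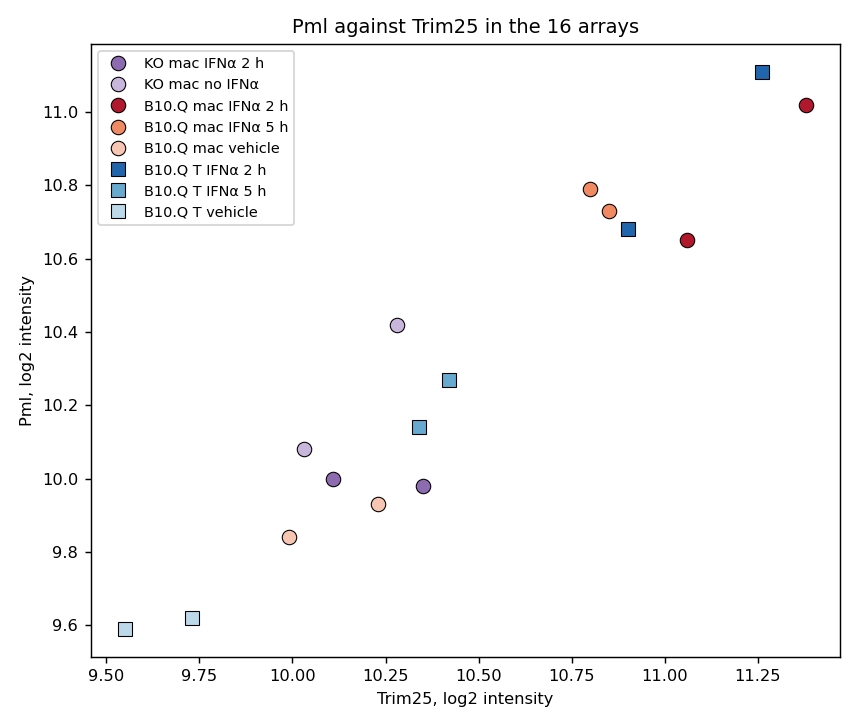
Pml against Trim25, both in log2 intensity, with each of the 16 arrays as a point (circles, macrophages; squares, T cells). The arrays rise together on both axes (Pearson r 0.958) with the T-cell vehicle arrays at the low end and array 1 of each 2 h B10.Q pair at the high end.

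Of 55 other genes with a Trim symbol, 27 were tested in macrophages and 27 in T cells, 25 of them in both. In B10.Q macrophages 4 of 27 were called higher at 2 h and the same 4 at 5 h, where 0.798% and 0.836% of all genes were: Trim30d (1.27 ± 0.18 and 1.44 ± 0.18), Trim34a (1.02 ± 0.12 and 0.99 ± 0.12), Trim30a (0.95 ± 0.15 and 1.24 ± 0.15) and Trim12c (0.78 ± 0.13 and 0.92 ± 0.13), with limma adjusted p of 0.00351 to 0.0237 at 2 h and 0.00311 to 0.00969 at 5 h. None of those tested was called lower with IFNα, and none was called in KO macrophages. The median of the 27 was -0.05 at 2 h and 0.00 at 5 h, against 0.86 and 0.71 for the 6 genes. Because the 6 were chosen with earlier results of these data known, this gap does not test whether they stand out from their family.

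These 4 genes lie together on chromosome 7, between 1679.0 and 1904.5 kb beyond Trim21. They belong to a cluster of related genes, and whether their probes read more than 1 of them was not tested. Of the 13 alternatives at 2 h (12 for Trim12c), Trim34a was called in 12, Trim30d in 11, Trim30a in 10 and Trim12c in 9, and the losses came from leaving out array 1 of the treated pair or a vehicle array. At 5 h the losses, 2 to 4 for each gene, all came from leaving out 1 array.

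Trim34a was also called in T cells at 2 h, at 0.95 ± 0.12 (limma adjusted p 0.0284), and in the difference of B10.Q and KO responses, at 1.15 ± 0.17 (0.02). The T-cell call was lost without either vehicle array (1.00 and 0.90, limma adjusted p 0.408 and 0.511) and in a fit of only the groups compared (0.176). It read 9.10 and 8.86 in B10.Q macrophages at 2 h, against 7.93 and 7.99 with vehicle, and 9.87 and 9.56 in T cells at 2 h, against 8.81 and 8.72 with vehicle. In T cells Trim30d (1.65 ± 0.24), Trim12c (1.18 ± 0.18) and Trim30a (1.16 ± 0.23) had larger differences at 2 h that did not pass (limma adjusted p 0.054, 0.0651 and 0.183). No other Trim gene was called in T cells at 5 h.

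**Figure D5:**
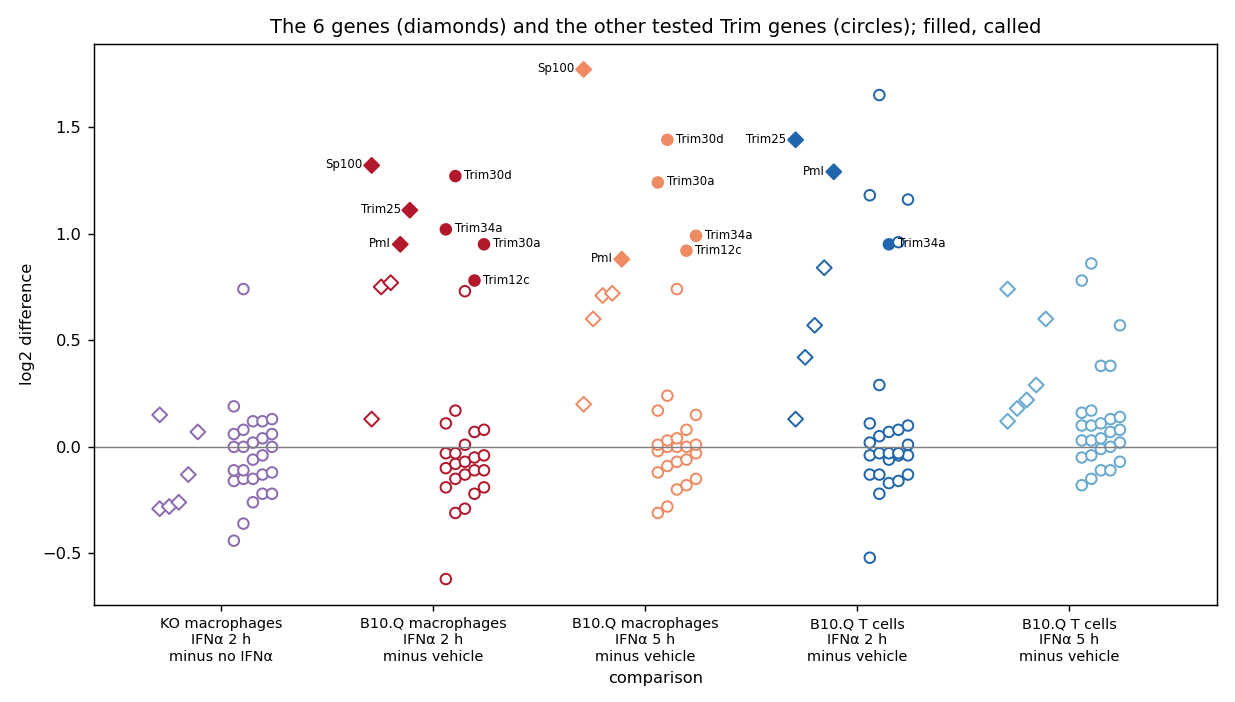
Log2 difference of IFNα from its own control (vertical axis) in 5 comparisons, for the 6 genes (diamonds) and the other tested Trim genes (circles, 27 in macrophages and 27 in T cells); filled and named symbols passed at an adjusted p under 0.05. In B10.Q macrophages most other Trim genes lie near 0 and 4 stand at 0.78 to 1.44, beside Sp100, Pml and Trim25.

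Among genes of PML bodies and of sumoylation, 26 of 30 listed were on the array and Daxx was the only call with IFNα. Daxx, a histone chaperone held in PML bodies, read 10.36 and 9.67 in B10.Q macrophages at 2 h and 9.64 and 9.81 at 5 h, against 8.61 and 8.61 with vehicle. It was higher by 1.41 ± 0.20 (limma adjusted p 0.00797) and 1.11 ± 0.20 (0.0309), called in 11 of 13 alternatives at 2 h and 7 of 13 at 5 h, with each loss at 2 h from leaving out a vehicle array. In T cells none of the list passed at 2 h, where Daxx stood at 1.00 ± 0.16 (limma adjusted p 0.0794) and the nuclear body exonuclease Isg20 at 1.65 ± 0.28 (0.0953), nor at 5 h. The median of the 25 tested in macrophages was -0.09 at 2 h and 0.04 at 5 h.

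Among genes that act with TRIM proteins in antiviral signalling, the RNA sensors and Irf7 were called. Of 23 listed genes tested, 4 were called higher in macrophages at 2 h, where 0.798% of all genes were: Irf7, which drives interferon genes (2.70 ± 0.28), Ddx58, which encodes RIG-I (1.73 ± 0.20), Ifih1, which encodes the sensor MDA5 (1.43 ± 0.23), and Zc3hav1, an antiviral RNA-binding protein (0.88 ± 0.17, limma adjusted p 0.0467, called in 6 of 13 alternatives). The first 3 were called at 5 h as well, at 2.83 ± 0.28, 1.82 ± 0.20 and 1.52 ± 0.23. Irf7 alone was called in T cells at 2 h, at 1.87 ± 0.16 (limma adjusted p 0.00631, 22 of the list tested, called in 10 of 13 alternatives), and none at 5 h. In macrophages Irf7 and Ddx58 were called in 13 of 13 alternatives at each time, and Ifih1 in 11 at 2 h and 9 at 5 h. The mitochondrial adaptor Mavs and the kinase Tbk1 were among the 19 not called at 2 h, and the median of the list was -0.06.

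Of the receptor, kinase and ISGF3 genes, 6 of 7 were on the array and Stat2 and Irf9, parts of the transcription factor ISGF3, were called. They were higher in macrophages by 2.07 ± 0.26 and 1.62 ± 0.20 at 2 h and by 1.87 ± 0.26 and 1.54 ± 0.20 at 5 h, and Irf9 in T cells by 1.20 ± 0.09 at 2 h. Of 13 alternatives, Stat2 was called in 13 at 2 h and 10 at 5 h, and Irf9 in 12 and 9, and in 10 in T cells. Ifnar1, Ifnar2, Tyk2 and Jak1 were not called with IFNα in either cell type. No gene of these 3 lists was called in KO macrophages.

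As a yardstick, Mx1, a classical interferon-stimulated gene, was higher in B10.Q macrophages by 5.22 ± 0.26 at 2 h and by 4.5 ± 0.26 at 5 h (limma adjusted p 1.43e-05 and 3.77e-05). In KO macrophages it stood at -0.20 ± 0.26 and was not called. In B10.Q T cells Mx1 read 7.23 and 6.41 at 2 h and 5.98 and 6.20 at 5 h, against 5.96 and 5.84 with vehicle. These values lie below the median of every T-cell array, and Mx1 was not tested in the T-cell fit. It is thus no yardstick for the T-cell responses. Its macrophage response exceeded that of T cells by 4.30 ± 0.42 at 2 h and 4.31 ± 0.42 at 5 h.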

How the data were processed

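The authors deposited linear signal intensity for 16 arrays, made with RMA in Affymetrix Power Tools per the submitters' processing notes, with versions not given in the sources used here. Sorted cells went into TriZol and RNA was amplified with an Ambion kit, per the labels' protocols. RMA draws the arrays to a common distribution, so a shift of all genes would not be seen. Intensities were taken to log2. Of 24922 probe sets, 21425 had 1 gene symbol, 1399 several and 2098 none. Genes with several probe sets (921) took that with the highest mean. Tests kept genes that exceeded the array's median on 2 or more of the arrays fitted. limma 3.58.1 in R 4.3.3 (lmFit, eBayes) fitted the 10 macrophage, 6 T-cell and 12 B10.Q arrays separately, with Benjamini-Hochberg adjustment over all genes per comparison and calls at an adjusted p under 0.05. The code was tested on simulated data. Replicate numbers were not used as pairs, and 10 of 28 group pairs had deviations correlated over 0.1. Same-numbered macrophage and T-cell arrays correlated at 0.17 at 2 h, 0.16 with vehicle and -0.14 at 5 h. Whether they come from the same mice is not known, and that count cannot exclude it. The macrophage minus T-cell tests took them as independent. The number of arrays limits the precision. The members and gene lists were chosen with earlier results of these data known. Named genes are the 6, other Trim genes and listed partners that were called, and the 3 genes most like each of the 6. Alternatives were other filters, normalizations, variance models and sets of arrays, and leaving out each array; for named genes other than the 6 they were added after seeing which were called. Figures were drawn with matplotlib 3.10.9 in Python 3.11.15.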

Additional observations from a re-analysis of the deposited data

Results flagged for a closer look

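The 2 h response to IFNα was larger in B10.Q than in KO macrophages, by the test of the difference itself in limma, for Irf7 (3.23 ± 0.40, adjusted p 0.00895), Stat2 (2.29 ± 0.37, 0.03), Irf9 (2.28 ± 0.28, 0.00895), Ddx58 (1.96 ± 0.29, 0.0183) and Trim34a (1.15 ± 0.17, 0.02). Strain, age and control differ with the line and cannot be told apart from it. In KO macrophages alone the IFNα difference was -0.67 ± 0.20 for Irf9, -0.53 ± 0.28 for Irf7, -0.23 for Ddx58, -0.22 for Stat2 and -0.13 for Trim34a. None of these was called, and part of each difference of responses is this lower KO value. The KO arrays without IFNα read 9.56 and 10.27 for Irf9. Of 17 alternatives Irf7 and Irf9 were called in 15, Ddx58 in 13, Trim34a in 11 and Stat2 in 10, with an adjusted p of up to 0.21 for Stat2 and 0.151 for Trim34a. At 5 h the response was larger in macrophages than in T cells for Sp100 (1.65 ± 0.20, adjusted p 0.00483) and Irf9 (0.72 ± 0.12, 0.0389), called in 17 and 6 of 17 alternatives. A probe set that carries Sp100 and 4 other names, and enters no comparison above, read 10.10 and 10.04 in B10.Q macrophages at 5 h, against 8.77 and 8.71 with vehicle, a difference of 1.33 that was not tested.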

How the results depend on the processing

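For the 6 genes, 920 of the differences under other settings kept direction and call, 30 gained a call, 24 lost it and 34 changed sign, none of those called. Leaving out 1 array gave counts of called genes of 0 to 1191 for KO macrophages, 36 to 123 for B10.Q macrophages at 2 h, 29 to 38 at 5 h, 1 to 5 between these times, 21 to 33 between untreated lines, 8 to 491 for the B10.Q minus KO response, 0 to 1817 for T cells at 2 h, 0 at 5 h, 0 to 1641 between these times, and 1 to 511 and 6 to 11 for the macrophage minus T-cell response at 2 h and 5 h. Of the 6 genes, 0 to 3, 0 to 1, 0 to 5 (B10.Q minus KO response), 0 to 5 (T cells, 2 h), 0 to 5 (T cells, 5 h minus 2 h) and 0 to 1 (macrophage minus T-cell response, 2 h) were then called. With only the groups compared, 203 genes (5 of the 6) were called in macrophages at 5 h, 40 between times, 198 between untreated lines, 2 (0 of the 6) in T cells at 2 h, 63 (2 of the 6) at 5 h, 0 between times, and 1 and 140 for the macrophage minus T-cell responses. With all 16 arrays the counts were 11 in KO, 3 between macrophage times, 150 between lines, 72 (2 of the 6) for the B10.Q minus KO response, 50, 6 and 7 in T cells, and 14 for the 5 h response difference. Without a filter 3 genes were called between T-cell times, 7 for the 2 h response difference and 1 of the 6 for the B10.Q minus KO response. A filter at the 70th percentile gave 30 between lines, 1 of the 6 for that response, 1 in T cells at 5 h and 0 between T-cell times, and left Trim26 untested in macrophages. Subtracted medians gave 4, 3 and 5 (T cells 5 h, between times, 2 h response difference), quantile normalization 1 in KO and 8 for the 5 h response difference, and trended robust variance 6 and 17 for the response differences. The cause was not tested, beyond fewer arrays or genes in a fit.

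Leaving out an array changed signs within these ranges: in KO, Trim14 -0.61 to 0.04, Trim25 -0.05 to 0.19 and Sp100 -0.45 to 0.20; between macrophage times, Trim14 -0.42 to 0.11, Trim21 -0.27 to 0.16, Trim26 -0.01 to 0.17 and Pml -0.26 to 0.11; between lines, Trim14 from -0.0024, Trim25 -0.17 to 0.07 and Trim26 -0.01 to 0.27. For Trim26 the range was -0.16 to 0.11 in the B10.Q minus KO response and -0.03 to 0.12 between T-cell times. In the macrophage minus T-cell response it was -0.09 to 0.44 for Trim14, -0.39 to 0.25 for Trim21 and -0.10 to 0.08 for Trim26 at 2 h, and -0.14 to 0.09 for Trim25 and -0.01 to 0.05 for Trim26 at 5 h. Quantile normalization turned Trim14 between lines (-0.0017) and Trim26 in the B10.Q minus KO (0.02) and the 2 h macrophage minus T-cell response (0.03), and subtracted medians turned Trim25 between lines (0.01).

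With the replicate number as a block, 75 genes were called in macrophages at 2 h, 81 at 5 h, 59 between lines, 41 for the B10.Q minus KO response and 36 in T cells at 2 h, and no call among the 6 genes changed. Whether these numbers pair the samples is not known. A crossed pairing of the KO arrays, chosen after seeing the data, called 0 genes.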
